A study of Oryza sativa with 6 samples.

Results

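Genes that gave no or almost no reads in flag leaves of wild-type rice, and reads in every library of plants that overexpress OsRUS1, were collected from the count table. A gene was a member if each of the 3 OsRUS1-OX libraries held at least 5 reads and each of the 3 WT libraries at most 1. Only genes with a number of the Rice Annotation Project (RAP, written OS, chromosome, G, order along the chromosome) were taken, and dehydrins were left out. In all, 153 genes met the rule, of 37869 RAP genes and 91180 features in the table. The rule itself used the difference between the genotypes, so the levels of the members in OsRUS1-OX and in WT are a description and were not tested.

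OsRUS1-OX is a transgenic line that overexpresses an OsRUS1-GFP fusion, chosen from several independent lines of the same kind, and WT is the variety ZhongHua11. Flag leaves were taken at heading from plants grown in the field, at 11 h on a sunny day, when the leaves of OsRUS1-OX were rolled and those of WT were expanded. Each library came from leaves of 3 plants pooled, and there were 3 separate collections of each genotype. The genotype, the rolled state of the leaf and the single line therefore cannot be told apart, and a bulk library cannot separate more cells of a type from more RNA per cell. The OsRUS1-OX libraries held 11918655 to 13532579 reads on features and the WT libraries 8759812 to 11744177. OsRUS1 itself (OS04G0290800) had 7313, 3515 and 7577 reads in OsRUS1-OX replicates 1, 2 and 3, against 57, 120 and 102 reads in WT replicates 1, 2 and 3, and the genotypes did not overlap. Values in threes are given in this order of replicates throughout.

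Flag leaves that express a photosynthetic programme keep many other gene families off, among them genes of seed maturation, of the reproductive organs and of the responses to drought and heat. Late embryogenesis abundant (LEA) proteins, dehydrins and small heat shock proteins are known from drying seeds and are also switched on in leaves that lose water, in part through the hormone abscisic acid. RUS proteins were first described in Arabidopsis from roots that are hypersensitive to weak ultraviolet light.

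The 4 leaf markers examined, for the small subunit of Rubisco, light-harvesting proteins and Rubisco activase, summed to 37307 to 40017 CPM (counts scaled to library size) in OsRUS1-OX and 41069 to 48426 CPM in WT. The list did not move as a whole: the light-harvesting gene OS01G0600900 was at 4579 to 5441 CPM in OsRUS1-OX and 2223 to 2826 CPM in WT, Rubisco activase (OS11G0707000) at 24365 to 24694 CPM in OsRUS1-OX and 27388 to 35026 CPM in WT, and the small subunit (OS12G0274700) at 46.2 to 59.2 CPM in OsRUS1-OX and 65.8 to 149.5 CPM in WT. The other light-harvesting gene, OS09G0346500, overlapped between the genotypes. Of the 4 anther and pollen markers, 3 had no read in any library, and CYP703A3 (OS08G0131100) had 5, 1 and 1 reads in OsRUS1-OX and 1, 3 and 1 in WT. The 3 embryo markers summed to 0, 3 and 2 reads in OsRUS1-OX and to 0 in each WT library. Of the 4 endosperm markers, the glutelin GluB1 and the globulin Glb1 had no read in any library, and the list summed to 4.64 to 6.52 CPM in OsRUS1-OX and 16.8 to 20.3 CPM in WT, all of it from Wx and GluA1. The root marker RCc3 had no read. RNA of these organs was thus at or near 0 by its defining markers, apart from these 2 endosperm genes, whose sum was lower in OsRUS1-OX.

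Of the 37869 RAP genes, 13917 had at most 1 read in each WT library, and 12232 of these had also at most 1 read in each OsRUS1-OX library. At least 5 reads in 1 or more OsRUS1-OX libraries were found for 526 of them, in 257 genes in a single library, in 112 genes in 2 libraries and in 157 genes in all 3. The 157 are the 153 members and 4 dehydrins. Reads were also counted the other way round: 12944 RAP genes had at most 1 read in each OsRUS1-OX library, 109 of these had at least 5 reads in 1 or more WT libraries, and 7 had them in all 3 WT libraries. The OsRUS1-OX libraries were larger than the WT libraries, which favours the first count. With all libraries scaled down to the smallest, 97 genes met the rule and 7 met its reverse.

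RAB21, a dehydrin and so left out, was the most abundant gene of this pattern. RAB21 (OS11G0454300) had 2929, 3863 and 2448 reads in OsRUS1-OX and RAB16B (OS11G0454200) had 524, 493 and 239, with no read in WT. OS11G0454000 and OS11G0451700, which the study's ontology table lists with them under response to water stimulus, also had no read in WT. In OsRUS1-OX, OS11G0454000 had 73, 49 and 7 reads and OS11G0451700 had 71, 291 and 161.

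All 153 members together took 435, 761 and 401 CPM in the OsRUS1-OX libraries, and 5.71, 3.75 and 4.35 CPM in the WT libraries, here with the plain library totals. No read fell in any WT library for 55 members, while 59 had 1 WT read in all, 35 had 2 and 4 had 3. In OsRUS1-OX the level per length (FPKM, fragments scaled by gene length and by library size) had a median of 1.25 over the members and ran between 0.122 and 61.4. The 20186 RAP genes with 5 or more reads in every OsRUS1-OX library had a median of 10.1 FPKM. Most members were therefore low: 89 exceeded 1 FPKM and 13 exceeded 10 FPKM, and the 10 members with the highest normalised counts held 46.9% of all reads on the members in OsRUS1-OX. The members were also short, with a median gene length of 1227 bases against 1523 bases for the genes with 5 or more reads in every OsRUS1-OX library, and the range was 211 to 3813 bases. The WT limit is in raw reads, which a short gene meets more easily, and the genes compared had no such limit. How far this sets the difference in length was not tested.

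An edgeR quasi-likelihood test was run across all features, and 11.8% of the 19694 features that passed its filter on low counts were called higher in OsRUS1-OX. Of the members, 66 passed the filter and 87 did not. All 66 were called higher, which the rule had fixed beforehand, since a gene without WT reads passes this filter only through its OsRUS1-OX reads, and nothing is read from the count.

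Per length, the most abundant member was OS12G0553050, with 480, 490 and 108 reads in OsRUS1-OX and none in WT. Its mean was 61.4 ± 38.6 FPKM (SD, n = 3) in OsRUS1-OX, with replicate 3 far below the other replicates, and the sources used here give no description of it. Genes without a WT read were set against a floor of 3 reads over the WT group. The pooled level of OS12G0553050 in OsRUS1-OX was 277-fold above this floor. The floors and intervals used here pool the reads of the 3 libraries of each genotype, so a single library can lie lower. The intervals cover counting error only, and the floors leave out the counting error in OsRUS1-OX. The rule chose the members on these same reads, so the distance of a floor or interval from equal levels is no evidence of a difference.

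The second was OS04G0108101, annotated with unfolded protein binding and protein folding, with 191, 213 and 184 reads in OsRUS1-OX and none in WT. It stood at 38.9 ± 5.84 FPKM in OsRUS1-OX, by pooled reads 151-fold above the WT floor, and its 3 OsRUS1-OX libraries lay close together.

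The third was OS03G0168100, an LEA protein of the LEA-3 group, which had 418, 710 and 435 reads in OsRUS1-OX against 0, 0 and 1 in WT. Its level was 26.6 ± 10.4 FPKM in OsRUS1-OX, and the ratio of OsRUS1-OX to WT was 1203 with a 95% exact counting interval of 216 to 47555. LEA proteins are very hydrophilic and are thought to protect other proteins and membranes while cells dry.

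By reads, the highest member was OS09G0378700, a U-box protein with armadillo repeats, a class of E3 ubiquitin ligases that tag other proteins for breakdown. It had 417, 1110 and 611 reads in OsRUS1-OX and 1, 1 and 0 in WT, and stood at 23.996 ± 13.8 FPKM in OsRUS1-OX. The ratio of OsRUS1-OX to WT was 823 (95% exact interval 228 to 6800).

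SALT (OS01G0348900), a mannose-binding lectin of the jacalin type first known from rice under salt stress, had 74, 448 and 63 reads in OsRUS1-OX and none in WT. Replicate 2 alone carried most of its reads, so that its mean of 23.3 FPKM in OsRUS1-OX had an SD of 27.4. Its pooled level was 150-fold above the WT floor, a value that rests largely on replicate 2.

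A set of high members had no description. OS11G0659200 had 189, 114 and 39 reads in OsRUS1-OX, OS07G0664600 had 59, 487 and 61, and OS03G0299700 had 309, 229 and 292. In WT the only read on these 3 genes was in replicate 3, on OS07G0664600. OS03G0629800, also without a description, had 183, 196 and 199 reads in OsRUS1-OX and none in WT. OS06G0553001 and OS01G0200350, are known only by general ontology terms. OS06G0553001 had 88, 161 and 104 reads in OsRUS1-OX and none in WT, and OS01G0200350 had 394, 371 and 314 in OsRUS1-OX and 1, 0 and 1 in WT.

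**Figure D1:**
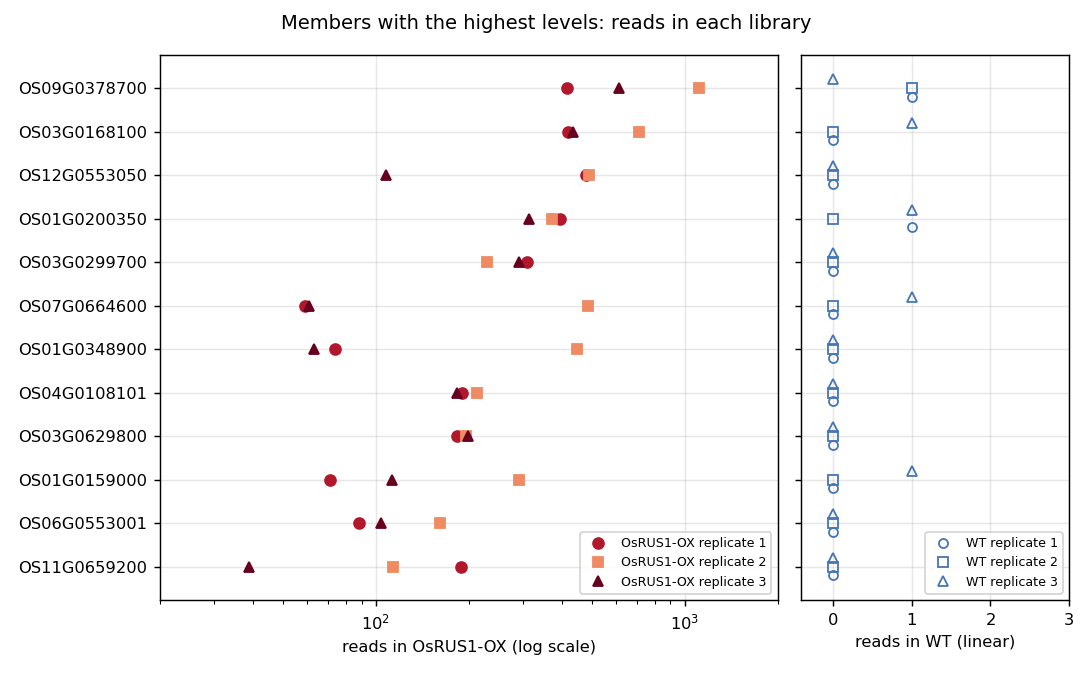
Reads of the 12 members that are among the 10 highest by FPKM or by normalised count in OsRUS1-OX; the left panel shows the 3 OsRUS1-OX libraries on a log axis and the right panel the 3 WT libraries on a linear axis, with small vertical offsets for visibility. Every WT library holds 0 or 1 read, and the OsRUS1-OX libraries hold 39 to 1110; OS03G0629800 and OS04G0108101 lie close together over the replicates, while OS07G0664600 and OS01G0348900 are high in replicate 2 alone.

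The study's supplementary tables gave a function for 72 members, general ontology terms or a name alone for 13, and nothing for 68. The 68 members without a description held 34.3% of the member reads in OsRUS1-OX and had a median of 0.966 FPKM. Those tables list only genes that the study called changed, and the main table used here was cut short at chromosome 7. A member outside them, in particular one beyond the cut, may thus have a known function that was not used here.

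Transcription factors were 10 members, between 0.766 and 10.1 FPKM in OsRUS1-OX with a median of 1.91, and 3 of them had no WT read. OS01G0159000, described by a TGA-like transcription factor domain, had 71, 292 and 113 reads in OsRUS1-OX against 0, 0 and 1 in WT. HOX12 (OS03G0198600), a homeobox protein, had 22, 63 and 40 reads in OsRUS1-OX and none in WT. Both were highest in replicate 2.

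OS01G0200600, an AP2/ERF factor that resembles TINY2 of Arabidopsis, had 67, 21 and 28 reads in OsRUS1-OX and none in WT. A C2H2 zinc finger gene, OS07G0588600, had 26, 32 and 32 reads in OsRUS1-OX and 0, 1 and 0 in WT, and the basic helix-loop-helix gene OS01G0108400 had 44, 11 and 29 in OsRUS1-OX and 0, 0 and 1 in WT. The 2 MYB genes OS12G0564100 and OS06G0112700, HOX18 (OS06G0698200) and a further basic helix-loop-helix gene, OS06G0226500, had between 6 and 38 reads in each OsRUS1-OX library. OS10G0523900, a dehydration-responsive element-binding protein of the class that switches on drought genes, was low and even, with 9, 9 and 11 reads in OsRUS1-OX against 0, 0 and 1 in WT.

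Proteins of seed maturation were 3 members, all highest in replicate 2. Beside the LEA-3 gene, OS06G0324400 of the LEA-25 group had 15, 59 and 19 reads in OsRUS1-OX and none in WT. OS05G0381400, an AWPM-19-like protein of the plasma membrane, had 15, 32 and 17 reads in OsRUS1-OX and none in WT.

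The chaperones were the gene OS04G0108101 above and HSP23.2 (OS04G0445100), a small heat shock protein with the alpha-crystallin domain. HSP23.2 had 15, 12 and 9 reads in OsRUS1-OX and none in WT. This is 1.001 ± 0.256 FPKM in OsRUS1-OX and, by pooled reads, 9.24-fold above the WT floor.

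Lipid transfer proteins, small secreted proteins that bind lipids and occur in the cuticle and the cell wall, were 5 members within a narrow range of 1.27 to 2.24 FPKM in OsRUS1-OX. OS03G0793800 had 12, 20 and 24 reads in OsRUS1-OX and 0, 1 and 1 in WT, and OS06G0705400 had 6, 17 and 23 in OsRUS1-OX and none in WT. OS01G0849000, OS07G0174400 and LTP-2 (OS03G0111300) had 5 to 15 reads in each OsRUS1-OX library.

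Enzymes of lipid, terpenoid, hormone and secondary metabolism were the largest described group, with 19 members between 0.472 and 7.05 FPKM in OsRUS1-OX. A terpene synthase, OS04G0344100, had 77, 305 and 70 reads in OsRUS1-OX against 0, 0 and 1 in WT. An acyltransferase of the phenylpropanoid class, OS06G0710700, had 65, 261 and 94 reads in OsRUS1-OX against 0, 1 and 0 in WT. Replicate 2 was the high library for both.

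A hydroxycinnamoyltransferase-like gene, OS09G0544000, had 32, 68 and 45 reads in OsRUS1-OX and 1, 0 and 0 in WT. OS02G0813600, a 3-ketoacyl-CoA synthase that lengthens fatty acids on the way to waxes, had 26, 63 and 55 reads in OsRUS1-OX and 0, 0 and 1 in WT. OS08G0390200, a 2-oxoglutarate-dependent dioxygenase, was highest in replicate 1, with 58, 27 and 35 reads in OsRUS1-OX and 0, 1 and 0 in WT. The 9-cis-epoxycarotenoid dioxygenase OS07G0154100, of the class that cleaves carotenoids in abscisic acid synthesis, is named for its function and not for its rank. It was much lower, with 12, 29 and 20 reads in OsRUS1-OX and 0, 1 and 0 in WT, or 0.748 ± 0.361 FPKM in OsRUS1-OX.

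Transporters and channels were 4 members, each highest in replicate 2. SWEET15 (OS02G0513100), a sugar exporter, had 73, 126 and 60 reads in OsRUS1-OX against 1, 1 and 0 in WT, a ratio of 99.7 (95% exact interval 27.3 to 828). The ABC transporter OS03G0281900 had 9, 29 and 22 reads in OsRUS1-OX, the ion channel OS01G0782800 had 13, 14 and 9 and the potassium transporter OS08G0315200 had 8, 19 and 8, with no read in WT for any of them.

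Kinases and receptors were 4 members at 0.208 to 2.34 FPKM in OsRUS1-OX. The leucine-rich repeat gene OS07G0568700 had 33, 37 and 62 reads in OsRUS1-OX and none in WT, and was highest in replicate 3. It was placed here by a receptor kinase class, while its description also likens it to PGIP1 of Arabidopsis. OS01G0137200, with the galacturonan-binding domain of wall-associated kinases, OS02G0194600 and the phosphatidylinositol-4-phosphate 5-kinase OS09G0278300 had 5 to 23 reads in each OsRUS1-OX library.

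Proteases and ubiquitin ligases were 7 members. Beside the U-box gene, the papain-type cysteine peptidase OS04G0107700 had 46, 50 and 37 reads in OsRUS1-OX and 0, 1 and 0 in WT. OS07G0686300 with ubiquitin ligase activity, the RING-type gene OS02G0106600 and the otubain peptidase OS04G0652600, of a class that removes ubiquitin, had 9 to 36 reads in each OsRUS1-OX library. The 3 cell wall members, the arabinogalactan peptides OS01G0592500 and OS02G0264800 and the glycoside hydrolase OS03G0397600, had 7 to 31.

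Among the other described members, the TspO/MBR-related protein OS05G0151200, a membrane protein family that binds tetrapyrroles, had 105, 152 and 124 reads in OsRUS1-OX and none in WT, at 11.98 ± 3.05 FPKM in OsRUS1-OX. GER4 (OS01G0284500), a germin, which are proteins of the extracellular matrix, had 39, 49 and 58 reads in OsRUS1-OX and none in WT. OS04G0386700, placed among putative transcription regulators, had 56, 115 and 89 reads in OsRUS1-OX and none in WT. BURP7 (OS05G0217700), with the plant-specific BURP domain, had 71, 24 and 23 in OsRUS1-OX and none in WT.

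**Figure D2:**
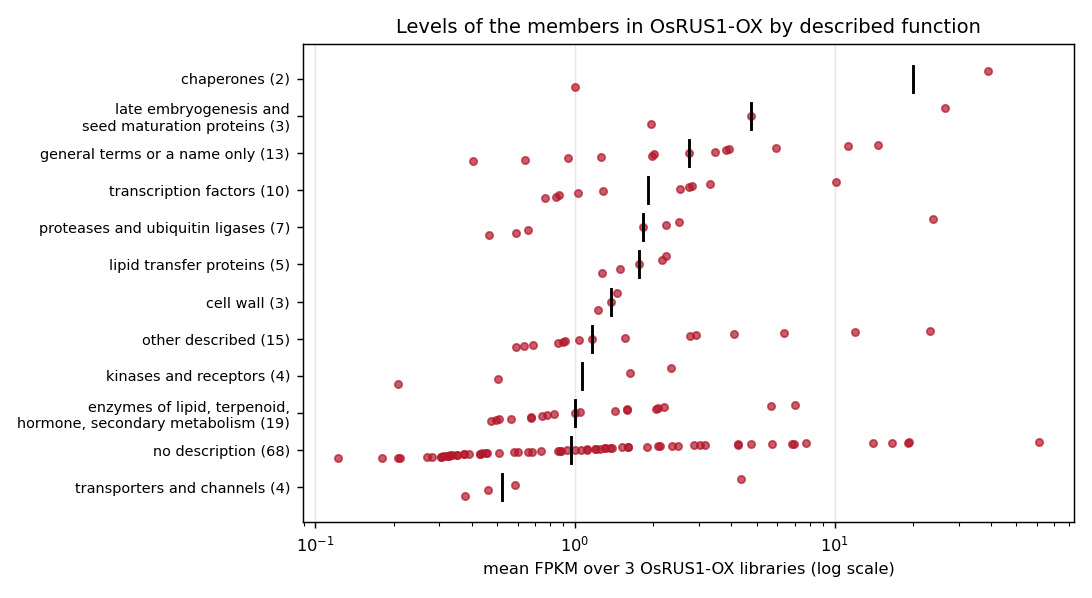
Mean FPKM of each of the 153 members over the 3 OsRUS1-OX libraries (points, log axis) by described function, with the number of members in parentheses and the median as a vertical bar; vertical offsets only separate the points. Apart from the chaperones, the medians of the groups lie between 0.523 and 4.78 FPKM; the 2 chaperones lie far apart, at 1.001 and 38.9, and the gene at the far right is OS12G0553050 at 61.4.

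The members varied between the OsRUS1-OX libraries, a measure that the rule touched only through its floor of 5 reads. Of 58 members with a mean of at least 20 normalised counts in OsRUS1-OX, 43 (74.1%) were highest in replicate 2, 11 in replicate 1 and 4 in replicate 3. Among the 1564 other features called higher in OsRUS1-OX that lay in the same range of means, 59.3% were highest in replicate 2, and among all 14064 other features of that range 34.4% were. The median coefficient of variation over the 3 libraries was 0.516 for the members, 0.172 for the other features called higher and 0.116 for all others, as a description without a test. These values are not like for like. The features called higher had passed a test that favours a small spread between replicates, which the rule did not ask of the members. The sets were matched by the range of means only, and counting error raises the coefficient at low means. Replicate 2 was also the OsRUS1-OX library with the fewest OsRUS1 reads, at 3412 normalised counts against 6271 and 6347 in replicates 1 and 3, and its part in the spread was not tested.

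In 11 of the 58 members, replicate 2 exceeded both other OsRUS1-OX libraries more than 3-fold. They included SALT, the terpene synthase, the acyltransferase OS06G0710700 and the LEA-25 gene, and the remaining members of this kind had no described function, such as OS08G0508000 with 19, 120 and 16 reads in OsRUS1-OX and OS07G0664600. Their highest library exceeded the lowest by up to 9.34-fold in normalised counts. Replicate 1 stood above both others by more than 3-fold in 3 members, OS02G0323600 with 245, 38 and 38 reads in OsRUS1-OX, OS09G0426500 with 90, 10 and 18, and OS04G0272200 with 62, 10 and 17, none of which had a description. Replicate 3 did so in 0 members.

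The steadiest of these 58 members formed a contrast. OS05G0296200 had 39, 39 and 42 reads in OsRUS1-OX, with a coefficient of variation of 0.0627. Within the same 58, it was followed by OS03G0299700, OS03G0629800, OS01G0200350 and the protein folding gene OS04G0108101, at 0.0875 to 0.160. Of these 5 genes, 4 had no WT read, and OS01G0200350 had 2 WT reads in all.

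**Figure D3:**
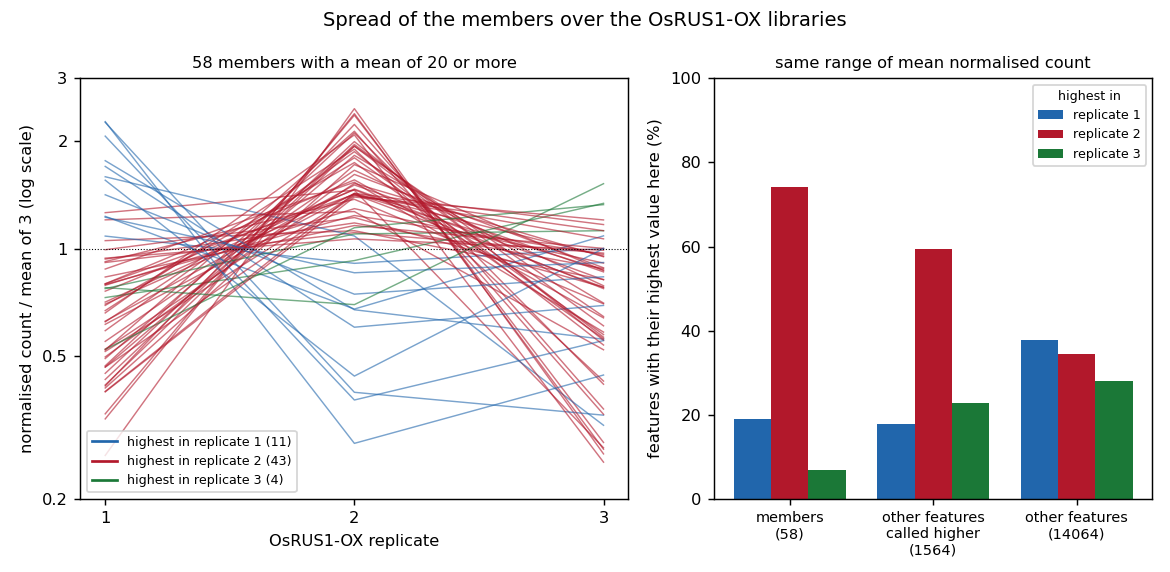
Left, normalised count of each of the 58 members with a mean of 20 or more, divided by its mean over the 3 OsRUS1-OX libraries (log axis), 1 line for each gene, coloured by the replicate in which it is highest. Right, percent of features that are highest in each OsRUS1-OX replicate, for the members and for other features in the same range of mean normalised counts; replicate 2 is highest for 74.1% of the members, 59.3% of other features called higher and 34.4% of all others.

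The members were found on all 12 chromosomes. Chromosome numbers were read from the RAP numbers, and the place of a gene from the order of those numbers, since a genome of the build used was not at hand. Chromosome 1 held 29 members, chromosomes 3 and 7 held 19 each and chromosome 12 held 4. Counted per 1000 RAP genes with 5 or more reads in every OsRUS1-OX library, the value was 7.58 over all chromosomes, and it ran between 3.52 on chromosome 12 and 12.4 on chromosome 7. No test was made of this spread.

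**Figure D4:**
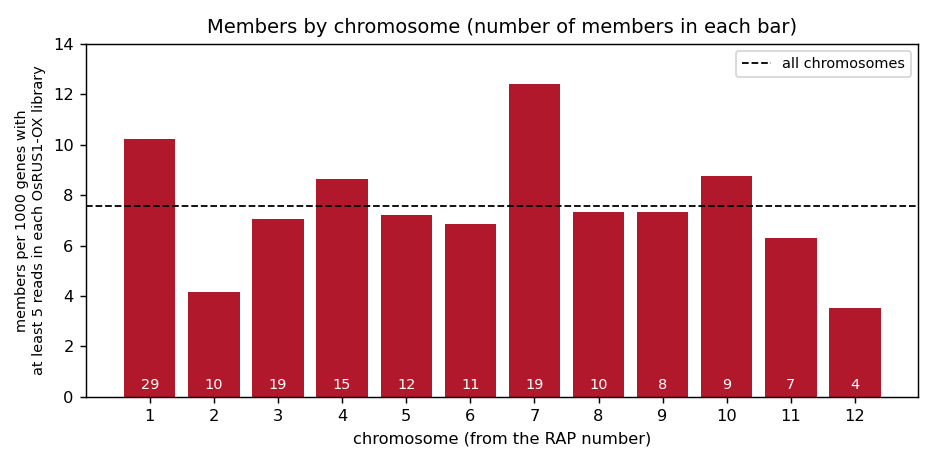
Members on each chromosome per 1000 RAP genes with 5 or more reads in every OsRUS1-OX library (bars, from 0), with the number of members in each bar and the value over all chromosomes as a dashed line. Chromosome 7 is highest at 12.4 and chromosome 12 lowest at 3.52, around 7.58 for all.

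In 9 cases a member and the next lay no more than 5 steps apart in RAP order. On chromosome 1, the germin GER4 followed the epimerase OS01G0283700 after 1 gene, and the cytochrome P450 OS01G0349800 followed SALT after 3 genes. On chromosome 7, the peroxidase OS07G0104500 followed the dioxygenase OS07G0103500 after 4 genes. The other pairs were OS01G0200350 with OS01G0200600, OS06G0553001 with the plastocyanin-like gene OS06G0553800, the extra-large GTP-binding protein OS10G0117800 with OS10G0118200, and OS12G0237900 with OS12G0238900.

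On chromosome 4, 3 members stood within 8 places of RAP order. The cysteine peptidase OS04G0107700, the protein folding gene OS04G0108101 and the legume lectin gene OS04G0109500, with 6, 20 and 18 reads in OsRUS1-OX and 0, 0 and 1 in WT, were members. Between the first 2 of them lay OS04G0107900, an HSP90 heat shock protein, which had 560, 767 and 419 reads in OsRUS1-OX and 3, 3 and 5 in WT and so missed the rule. Its log2 fold change was 6.92 (edgeR adjusted p = 0.000154, higher in 3 of 3 OsRUS1-OX libraries). OS04G0108300, next after the protein folding gene, had 1275, 1518 and 1506 reads in OsRUS1-OX and 457, 696 and 682 in WT, a log2 fold change of 0.87 (edgeR adjusted p = 0.00429). OS04G0108600, the gene after it, had no read in any library. The HSP90 gene and its neighbours were chosen for display after their values were seen.

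Other neighbours of members differed among themselves. Between OS01G0200350 and OS01G0200600, OS01G0200400 had 93, 76 and 108 reads in OsRUS1-OX and 35, 60 and 69 in WT, a log2 fold change of 0.39 (edgeR adjusted p = 0.233), and OS01G0200500 had 306, 258 and 287 in OsRUS1-OX and 155, 253 and 215 in WT, a log2 fold change of 0.08 (edgeR adjusted p = 0.699). Beside the steady member OS03G0299700, OS03G0299600 had 1748, 2004 and 2129 reads in OsRUS1-OX and 609, 583 and 1120 in WT, and was called higher, at a log2 fold change of 0.98 (edgeR adjusted p = 0.0203), while OS03G0299800 on its other side was not called, at 0.53 (edgeR adjusted p = 0.234). Beside the steady member OS03G0629800, OS03G0629900 had 285, 252 and 268 reads in OsRUS1-OX and 467, 506 and 485 in WT, and was called lower, at a log2 fold change of -1.25 (edgeR adjusted p = 0.00101).

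**Figure D5:**
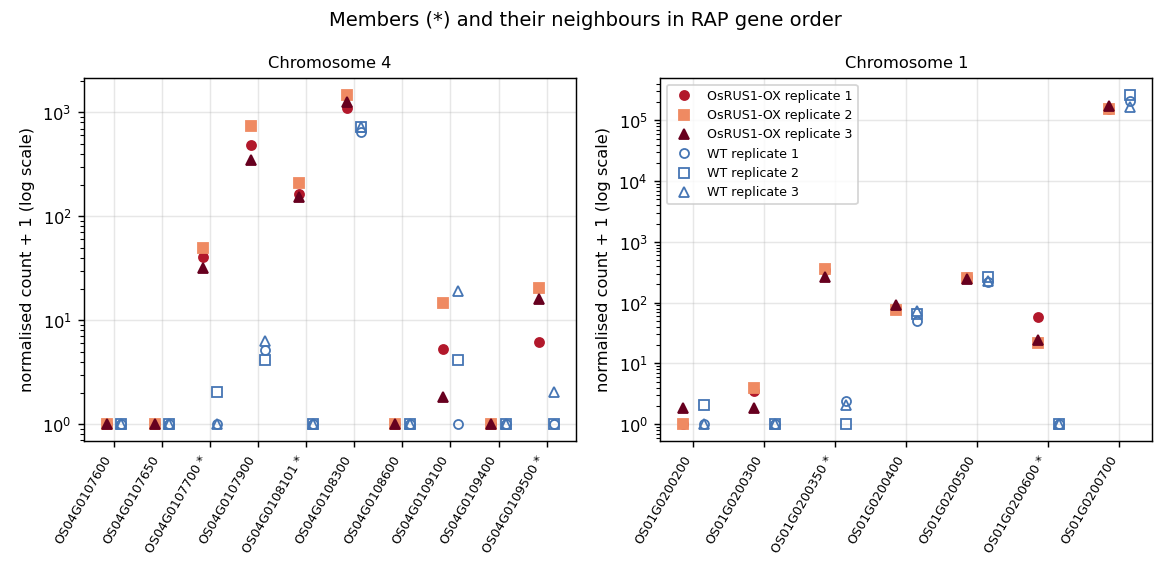
Normalised counts plus 1 (log axis) of genes in RAP order around members, marked with an asterisk, on chromosomes 4 and 1, with OsRUS1-OX (filled) left of WT (open) for each gene and 1 symbol for each replicate. On chromosome 4, the HSP90 gene OS04G0107900 between members is also far higher in OsRUS1-OX, and on chromosome 1 the genes between the members, OS01G0200400 and OS01G0200500, overlap or nearly overlap.

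Over the whole set, 304 non-member RAP genes stood next to a member, of which 142 passed the filter on low counts. Of these, 34 (23.9%) were called higher in OsRUS1-OX and 11 (7.75%) lower, beside 11.6% and 11.8% of all 19291 non-member RAP genes tested. The library steps given by the study include none that keeps the strand, though it does not state this outright. Reads of overlapping neighbours cannot be told apart here, and their part in these counts was not tested.

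Relatives, which are genes outside the rule, were taken by keyword from the study's own tables of changed genes. They came from some families of the members, and from the NAC family, which had no member. Other families of the members, among them the MYB factors, cytochromes P450 and peroxidases, were not searched. Such a list is not independent evidence of direction, since it holds only genes that the study called on these libraries, and the main table was cut short at chromosome 7. Of 74 relatives in 11 families, 73 passed the filter, and 61 of these were called higher and 10 lower by edgeR. These totals include the 15 NAC factors. Over all features tested, 11.8% were called higher, and of the features called in either direction 50.1% were higher. The second share is nearer than the first, since the list holds only genes that the study had called. It is still taken over the edgeR calls and not over those of the study, in which more genes were up than down. All 8 LEA relatives, all 11 homeobox relatives, all 9 small heat shock relatives and all 4 germin relatives were called higher. Of the lipid transfer relatives 7 of 9 were higher and 1 lower, of the SWEET relatives 5 of 6 were higher and 1 lower, and of the BURP relatives 2 of 3 were higher and 1 lower. The families were less uniform for the 3-ketoacyl-CoA synthases, with 3 higher and 2 lower, for the jacalin lectins, with 1 higher and 1 lower of 3, and for the NAC factors, which had no member, with 10 higher and 4 lower of 14 tested. The only relative in the dehydration-responsive class, OS06G0127100, was called higher. It had 27, 42 and 31 reads in OsRUS1-OX and 0, 2 and 0 in WT, and missed the rule through its WT reads alone. So did the LEA relative OS03G0322900, with 64, 161 and 104 reads in OsRUS1-OX and 2, 2 and 2 in WT. Such genes pass the filter only through OsRUS1-OX, so a call could only be higher, and nothing is read from it.

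The edge of the rule cut through a continuum. Just inside it, 4 members had 1 read in each WT library, among them OS07G0558900 with 10, 17 and 29 reads in OsRUS1-OX and OS06G0229400 with 6, 5 and 7. For OS06G0229400 the ratio of OsRUS1-OX to WT was 4.62 with a 95% exact interval of 1.35 to 24.5. The limits of the rule largely set this ratio, and nothing is read from its interval. At the lower limit in OsRUS1-OX, 31 members had exactly 5 reads in their lowest library, and OS08G0238200 had 5 in each of the 3.

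Just outside, 83 genes met the OsRUS1-OX limit with 2 reads in the highest WT library, and 51 met the WT limit with 4 reads in the lowest OsRUS1-OX library. The strongest of the first kind was OS03G0826900, with 986, 2409 and 617 reads in OsRUS1-OX and 2, 1 and 0 in WT, which in each OsRUS1-OX replicate is more than any member had. OS10G0505900 had 306, 475 and 285 in OsRUS1-OX and 2, 2 and 0 in WT. Further out, OS01G0910800 had 3095, 4404 and 4751 reads in OsRUS1-OX and missed the rule through 3 reads in WT replicate 2 alone. None of these 3 genes has a description in the sources used here.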

How the data were processed

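RNA-seq of rice flag leaves covered 3 OsRUS1-OX and 3 WT libraries. The authors mapped reads to the rice genome of Ensembl Plants with TopHat2 2.0.12 and counted them per feature with HTSeq 0.6.1, versions as in the submitters' processing notes, and deposited raw counts and the authors' FPKM. Counts were used as deposited, and FPKM only to compare levels between genes. Normalised counts are reads divided by TMM library sizes relative to their mean. The test across features was the quasi-likelihood test of edgeR 4.0.16 (R 4.3.3) with its default filter and Benjamini-Hochberg adjustment at 0.05, checked on simulated data. DESeq2 1.42.0 was an alternative. Gene lengths were derived from counts and FPKM. The members and lists were chosen with earlier results of these data known. Named genes were the 10 highest by FPKM and by normalised count, up to 5 for each function, the 5 steadiest and 5 most variable, members up to 5 steps apart, and genes at the limits. Further members, among them the lower 5 transcription factors and OS07G0154100, were named after their values were seen. Replicates were separate collections. The p-values judge the difference between genotypes against the spread between these pooled libraries, not between single plants or transgenic lines. Promoter motifs were not analysed here.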

Additional observations from a re-analysis of the deposited data

How the results depend on the processing

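The number of members depended on the limits: 55 genes with a WT limit of 0 reads, 236 with 2 reads, 75 with an OsRUS1-OX floor of 10 reads and 97 with counts scaled to the smallest library, against 153. Leaving out 1 library gave 184 to 204 genes, since fewer libraries then had to pass; with dehydrins it was 157, and with all features 159, both chosen after seeing the data. The median of 1.25 FPKM was 1.07 to 1.32 without 1 OsRUS1-OX library, lowest without replicate 2, 2.08 over the 97 genes of the scaled counts, also chosen after seeing the data, and 1.22 CPM in place of FPKM. Features called in all were 4644, and 2399 to 5219 without 1 library, with 2524 without OsRUS1-OX replicate 2 and 2399 without OsRUS1-OX replicate 3; RLE size factors, DESeq2 and no filter gave 4632, 5106 and 4872. Relatives called higher were 52 to 62 under all settings. Members called higher were 66 of 66 tested, 134 of 152 with DESeq2 and 146 of 153 without a filter. Over all features these fits called higher 2328 of 19694, 2592 of 31752 and 2652 of 31752. The rule chose the members on the same difference, so nothing is read from the member counts. Replicate numbers did not pair the libraries (correlations of deviations 0.125, -0.0914 and 0.112 for the pairs), and the replicate block gave 4013 features and 66 members. Below about 10 reads, the members' levels are limited by counting error.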

Other observations

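The 7 RAP genes of the reverse pattern, off in OsRUS1-OX and on in WT, were much lower than the highest members. This does not hold against the members as a whole, whose median was only 14.3 normalised counts in OsRUS1-OX. OS07G0561800 had 1, 0 and 0 reads in OsRUS1-OX replicates 1, 2 and 3, against 33, 122 and 63 in WT replicates 1, 2 and 3. OS05G0567600 had no read in OsRUS1-OX, against 17, 54 and 33 in WT. The other 5 genes had at most 43 reads in any WT library, and the sources used here were not searched for their functions. Of the 257 genes silent in WT with 5 or more reads in a single OsRUS1-OX library, 99 had them in replicate 1, 89 in replicate 2 and 69 in replicate 3.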
